A study of Danio rerio with 6 samples.

Results

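The antioxidant, glutathione and metallothionein genes of the zebrafish spinal cord were followed 1 week after transection. Their 67 members, of 14781 genes in the count files, were chosen by symbol and by a read minimum (at least 10 reads in at least 3 libraries). They encode glutathione S-transferases, glutathione peroxidases, peroxiredoxins, thioredoxins and related proteins, superoxide dismutases, catalase, glutaredoxins, enzymes that make or reduce glutathione, heme oxygenases, the quinone reductase Nqo1, metallothioneins, ferritins, Nrf transcription factors, Keap1 proteins and sestrins. In all, 68 symbols matched, and gstp2 was left out with 2 reads over the 6 libraries.

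RNA was profiled by bulk RNA-seq in 3 libraries of cords at 1 week post injury (1 wpi) after complete transection and in 3 libraries of sham cords. The fish were male and female adults of the Ekkwill strain. Sham fish, from the same clutches, had surgery that laid the cord open to view without cutting it, although their treatment label calls them uninjured. Tissue reached 2 mm to either side of the lesion, and the labels name no genotype or transgene. The number of fish in a library is not given, and p-values therefore cover the variation among these libraries, which may be technical.

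Superoxide dismutases turn superoxide into hydrogen peroxide, which catalase, glutathione peroxidases and peroxiredoxins remove. The glutathione peroxidases and peroxiredoxins, unlike catalase, do so at the expense of glutathione and thioredoxin. The transcription factor Nrf2 raises many of these enzymes when its inhibitor Keap1 is oxidized. Metallothioneins bind zinc and copper through cysteines, and ferritin stores iron in a form that does not generate radicals.

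Reads counted in genes ranged from 21926842 to 30147448 per library at 1 wpi and from 19310220 to 24161526 in sham cords. Members took from 0.643% to 0.689% of these reads at 1 wpi and from 0.673% to 0.695% in sham cords. Sham replicate 1 stood apart from its group. Its log2 CPM (a read count scaled by library size) correlated with those of sham replicates 2 and 3 across genes with r of 0.923 and 0.935, against 0.985 between those replicates. Oocyte marker genes summed to 416 CPM in it and to at most 30.6 CPM in every other library. Of 17 tested microglia and macrophage markers, 4 rose and none passed as lower in edgeR, against 5.81% and 4.83% of all genes tested. DESeq2 called 11 of the 17 higher and 0 lower, against 14.6% and 14.5% of all genes it tested. Without sham replicate 1, edgeR called 15 higher, against 29% of all genes tested in that fit. The 17 markers summed to between 10585 and 11654 CPM at 1 wpi, against 5910, 3795 and 3647 CPM in sham replicates 1, 2 and 3. Most of the sum at 1 wpi came from 1 gene, apoeb, at 7485, 8382 and 8297 CPM. In sham replicates 1, 2 and 3 apoeb measured 3412, 1331 and 1442 CPM. Of 10 tested neuron markers, 3 fell in edgeR, against 4.83% of all genes tested. DESeq2 called 5 lower and 1 higher, against 14.5% and 14.6% of all genes it tested. The 10 markers summed to between 13754 and 14398 CPM at 1 wpi, against 18139, 28652 and 32449 CPM in sham replicates 1, 2 and 3. The marker stmn2b lay the other way, at 872, 955 and 930 CPM at 1 wpi, against 664, 596 and 768 CPM in sham cords. elavl3 had a log2 fold change of -0.11 (edgeR adjusted p = 0.458). Of the other lists, 3 of 9 ependymo-radial glia markers and 1 of 7 oligodendrocyte markers rose in edgeR, against 5.81% of all genes tested. DESeq2 called 4 of these glia markers higher, and 2 of these oligodendrocyte markers higher and 1 lower. No marker of neutrophils (7 tested), skeletal muscle (18), oocytes (9) or skin (6) passed edgeR's test. At an unadjusted p below 0.05 were 2, 0, 6 and 1 of them, against 38.2% of all genes tested. Calls by DESeq2 numbered 1, 0, 7 and 1, against 29.2% of all genes it tested. Skeletal muscle markers summed to 46140, 13956 and 18525 CPM at 1 wpi, against 23413, 11073 and 8097 CPM in sham replicates 1, 2 and 3. Without sham replicate 1, 11 of the 18 muscle markers were higher, as were 29% of all genes tested in that fit. None of the tested markers of the microglia and neuron lists, nor of the ependymo-radial glia and oligodendrocyte lists, was at 0. The part of these marker shifts in the results below was not tested, and in whole tissue fewer cells of a type and less RNA per cell cannot be told apart.

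The first question was which members differed between cords at 1 wpi and sham cords. Of the 67 members, 8 rose (nfe2l1a, txnipa, keap1a, gstt1b, sesn3, nfe2l3, prdx2 and txndc12) and 4 fell (mt2, mtbl, gstr and sod1). The remaining 55 did not pass edgeR's quasi-likelihood test at an adjusted p of 0.05. Among all 12804 genes tested, 5.81% were higher and 4.83% lower, or 10.6% in either direction, against 17.9% of members. Members divided about evenly by sign, with 34 positive log2 fold changes and a median of 0.0069, against a median of -0.03 over all genes tested. The libraries at 1 wpi lay above all sham libraries for 15 members and below them for 13, against 22.9% and 21.8% of all genes tested. Together these are 41.8% of members and 44.7% of all genes tested. An unadjusted p below 0.05 was reached by 29 of the 67 members, against 38.2% of all genes tested.

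The same question was asked without sham replicate 1. Then 22 members were higher and 26 lower, against 29% and 28.2% of all genes tested. Together they are 71.6% of members, against 57.2% of all genes tested, and the 12 members called with all libraries were among them in the same direction. When any library other than sham replicate 1 was left out, edgeR called no gene at all. In those fits 21 to 26 members had an unadjusted p under 0.05, as did 23.5% to 26.7% of all genes tested. DESeq2 with all libraries called 15 members higher and 13 lower, or 41.8%, against 14.6% and 14.5% of all genes it tested, or 29.2% in either direction. With upper-quartile scaling 7 members were higher and 7 lower, against 8 and 4 with the TMM scaling used elsewhere. Over all genes tested the balance moved the same way, with 686 higher and 701 lower in upper-quartile scaling, against 744 and 618 with TMM.

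**Figure D1:**
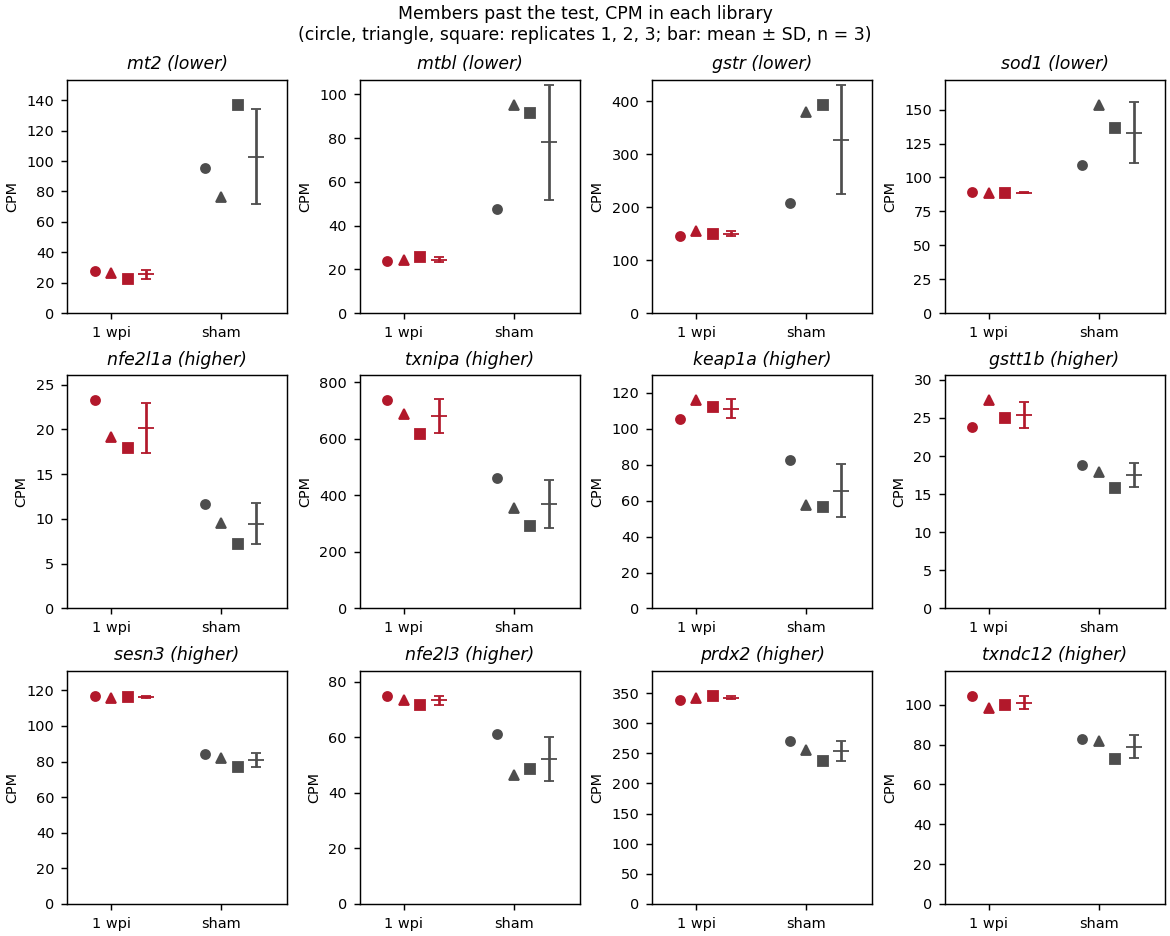
CPM (read count scaled by library size) of the 12 members past edgeR's test, with the 3 libraries at 1 wpi (red) left of the 3 sham libraries (grey) and each group's mean ± SD at its right. The groups do not overlap in any panel. Sham replicate 1 (grey circle) is the sham library nearest the 1 wpi libraries in every panel except that of mt2, where sham replicate 2 is.

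Metallothionein RNA showed the largest falls of the members. The summed level of mt2 and mtbl was 51.3, 50.3 and 47.9 CPM in the 1 wpi libraries, against 143, 172 and 228 CPM in the sham libraries. For mt2 the level was 27.7, 26.2 and 22.3 CPM at 1 wpi, against 95.6, 76.3 and 137 CPM in sham cords. Every library at 1 wpi lay below every sham library, and sham replicate 1 lay between the other sham libraries. The log2 fold change of mt2, which fell, was -2.02 (SE, its standard error, 0.229, edgeR adjusted p = 0.0281), and its level was 4.06-fold lower at 1 wpi. Among all genes tested its unadjusted p ranked at place 35.

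For mtbl, which encodes a second metallothionein, the level was 23.6, 24.2 and 25.6 CPM at 1 wpi, against 47.8, 95.2 and 91.4 CPM in sham cords. Here too the groups did not overlap, but sham replicate 1 lay apart. Its position on the log2 scale, where 0 marks the average of sham replicates 2 and 3 and 1 marks the 1 wpi average, was 0.500, against 0.0479 for mt2. mtbl fell with a log2 fold change of -1.68 (SE 0.265, edgeR adjusted p = 0.0325). With any single library left out, the log2 fold change ranged from -2.20 to -1.76 for mt2 and from -1.93 to -1.51 for mtbl. DESeq2 called both genes in each of its fits with 1 library left out, and each of those fits called at least 11 of the 12 called members. In edgeR neither gene passed when a library other than sham replicate 1 was left out. The smallest edgeR adjusted p there was 0.105 for mt2 and 0.111 for mtbl.

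The metallothioneins are short and alike, and the authors dropped reads that mapped poorly. Levels of both genes are therefore uncertain where their sequences are shared. The locus of mt2 also overlaps that of nup93, a nuclear pore gene, in the RefSeq gene table of a later assembly (GRCz12tu). nup93 had a log2 fold change of -0.10 (edgeR adjusted p = 0.270), with levels from 73.8 to 77.7 CPM at 1 wpi, against 77.5 to 82.5 CPM in sham cords. Of 15 tested genes of zinc handling, none passed the test in edgeR. Among them were the metal-responsive factor gene mtf1 and zinc transporter genes of the slc30a and slc39a families. An unadjusted p below 0.05 was reached by 8 of the 15, against 38.2% of all genes tested. DESeq2 called 3 higher and 2 lower, against 29.2% of all genes it tested in either direction. The 15 genes had a median log2 fold change of -0.01. Without sham replicate 1, 6 of them were higher and 5 lower, against 29% and 28.2% of all genes tested in that fit.

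Ferritin heavy chain genes did not pass edgeR's test, although the groups of both were separate, as for 44.7% of all genes tested. DESeq2 called both lower (adjusted p = 0.0391 for fth1a and 0.0140 for fth1b), as it did 14.5% of all genes it tested. fth1a, the ferritin gene with the most reads, measured 990, 1088 and 1230 CPM at 1 wpi, against 1273, 1360 and 1414 CPM in sham cords (log2 fold change -0.29, SE 0.120, edgeR adjusted p = 0.132). fth1b measured 42.6, 35.7 and 36.3 CPM at 1 wpi, against 42.6, 75.5 and 77.5 CPM in sham cords (log2 fold change -0.77, SE 0.236, edgeR adjusted p = 0.0754). For fth1b, injured replicate 1 and sham replicate 1 differed by less than the digits shown. In edgeR without sham replicate 1 both genes were lower, with adjusted p-values of 0.0274 for fth1a and 0.00033 for fth1b.

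Of 24 tested genes of iron and heme handling, 4 rose, 1 fell and 19 did not pass in edgeR. Among all genes tested, 5.81% were higher and 4.83% lower. An unadjusted p below 0.05 was reached by 14 of the 24, against 38.2% of all genes tested. DESeq2 called 7 higher and 6 lower, against 14.6% and 14.5% of all genes it tested. In edgeR without sham replicate 1, 10 of the 24 were higher and 9 lower, against 29% and 28.2% of all genes tested in that fit. flvcr1, which encodes a heme exporter in mammals, measured 101, 104 and 110 CPM at 1 wpi, against 66.4, 59.7 and 67.0 CPM in sham cords, a log2 fold change of 0.71 (SE 0.0748, edgeR adjusted p = 0.0281). The ferroxidase gene cp, for ceruloplasmin, rose by 1.56 on the log2 scale (SE 0.268, edgeR adjusted p = 0.0346). hephl1a, a gene of the same ferroxidase family, rose by 1.01 (SE 0.229, edgeR adjusted p = 0.0466). alas1, a gene of heme synthesis, rose by 0.30 on the log2 scale (SE 0.0686, edgeR adjusted p = 0.0466). fech, for the enzyme that inserts iron into protoporphyrin to form heme, measured 2.38, 2.60 and 3.64 CPM at 1 wpi, against 9.24, 5.90 and 5.54 CPM in sham cords, a log2 fold change of -1.26 (SE 0.281, edgeR adjusted p = 0.0459). The highest fech level was thus in sham replicate 1. Erythrocytes make heme with fech, and of their 6 tested marker genes none passed edgeR's test and 1 was lower by DESeq2. Of the 6, 1 had an unadjusted p below 0.05, against 38.2% of all genes tested. Those markers summed to 893, 502 and 565 CPM at 1 wpi, against 709, 1202 and 1170 CPM in sham cords, and their part in the fech result was not tested.

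Of 4 genes for superoxide dismutases and catalase, sod1 fell and sod2, sod3a and cat did not pass edgeR's test. Over all genes tested, edgeR called 4.83% lower. DESeq2 called sod1, sod2 and sod3a lower (adjusted p = 0.00113, 0.00466 and 0.00465), against 14.5% of all genes it tested. sod1, for the copper and zinc enzyme of the cytosol, measured 88.9, 88.6 and 88.6 CPM at 1 wpi, against 109, 154 and 136 CPM in sham cords. The 1 wpi libraries hardly differed among themselves and all lay below the sham libraries. sod1 fell with a log2 fold change of -0.58 (SE 0.129, edgeR adjusted p = 0.0451). sod2, for the manganese enzyme of mitochondria, measured 70.4, 67.6 and 68.0 CPM at 1 wpi, against 79.5, 105 and 99.7 CPM in sham cords, just short of the threshold (log2 fold change -0.47, edgeR adjusted p = 0.0514). sod3a, for an extracellular enzyme, measured 9.47, 7.47 and 6.24 CPM at 1 wpi, against 10.5, 20.1 and 20.4 CPM in sham cords (log2 fold change -1.14, SE 0.299, edgeR adjusted p = 0.0587).

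The groups did not overlap for the 3 dismutase genes, as for 44.7% of all genes tested, and without sham replicate 1 each was lower, as were 28.2% of all genes tested in that fit (adjusted p from 0.000283 to 0.00107 in edgeR). cat, the catalase gene, measured 223, 239 and 231 CPM at 1 wpi, against 216, 231 and 237 CPM in sham cords. The groups overlapped throughout, and the log2 fold change was 0.02 (SE 0.0749, edgeR adjusted p = 0.850).

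Of 6 peroxiredoxin genes, 1 rose and none passed as lower in edgeR, against 5.81% and 4.83% of all genes tested. prdx2, for a cytosolic peroxiredoxin abundant in neurons and red cells of mammals, measured 339, 343 and 345 CPM at 1 wpi, against 270, 255 and 237 CPM in sham cords. It rose with a log2 fold change of 0.43 (SE 0.0806, edgeR adjusted p = 0.0388). The groups were separate, and sham replicate 1 was the highest sham library. prdx3, for the mitochondrial enzyme, lay the other way at 78.6, 75.2 and 73.5 CPM at 1 wpi, against 87.2, 115 and 105 CPM in sham cords (log2 fold change -0.43, edgeR adjusted p = 0.0553). The log2 fold changes of the other 4 (prdx1, prdx4, prdx5 and prdx6) lay between 0.19 and 0.28, with adjusted p-values from 0.0775 to 0.382. DESeq2 called prdx2, prdx5 and prdx6 higher and prdx3 lower, against 14.6% and 14.5% of all genes it tested. No sulfiredoxin symbol was among the matches.

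None of the 7 glutathione peroxidase genes passed edgeR's test or reached an unadjusted p below 0.05, and none was called by DESeq2. gpx4b, which had the most reads of them and encodes a reducer of lipid peroxides, measured 209, 207 and 208 CPM at 1 wpi, against 203, 231 and 226 CPM in sham cords (log2 fold change -0.08, edgeR adjusted p = 0.475). Without sham replicate 1, edgeR called gpx7 and gpx8 higher and gpx4a and gpx4b lower. These are 57.1% of the class, close to the 57.2% of all genes tested that were called in that fit. In that fit gpx4a had a log2 fold change of -0.48 (edgeR adjusted p = 0.00143) and gpx4b one of -0.13 (edgeR adjusted p = 0.0418). gpx4a measured 109, 98.0 and 109 CPM at 1 wpi, against 98.6, 150 and 143 CPM in sham cords. gpx7 and gpx8 encode enzymes of the endoplasmic reticulum. gpx7 measured 12.2, 9.22 and 8.83 CPM at 1 wpi, against 10.7, 4.55 and 3.95 CPM in sham cords (log2 fold change 0.66, adjusted p = 0.272, and 1.25, adjusted p = 0.00224, without that library, both from edgeR). gpx8 measured 7.85, 6.87 and 7.10 CPM at 1 wpi, against 14.6, 5.20 and 3.79 CPM in sham cords, so that its log2 fold change was -0.11 with all libraries and 0.70 (edgeR adjusted p = 0.0145) without sham replicate 1.

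Of 13 thioredoxin-related genes, 2 rose and none passed as lower in edgeR. That was 15.4% of the class, against 10.6% of all genes tested called in either direction. txnipa, for a protein that binds and inhibits thioredoxin and restrains glucose uptake, measured 737, 687 and 618 CPM at 1 wpi, against 461, 354 and 293 CPM in sham cords. It rose with a log2 fold change of 0.88 (SE 0.183, edgeR adjusted p = 0.0425). txndc12, for a thioredoxin-like protein of the endoplasmic reticulum, rose by 0.35 on the log2 scale (SE 0.0752, edgeR adjusted p = 0.0434). Its level was 105, 98.5 and 100 CPM at 1 wpi, against 82.7, 82.0 and 72.5 CPM in sham cords. In both genes the sham libraries all lay below the libraries at 1 wpi, as for 22.9% of all genes tested.

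Thioredoxin itself had a larger difference and a wider sham group. txn measured 425, 442 and 414 CPM at 1 wpi, against 322, 149 and 167 CPM in sham cords (log2 fold change 1.01, SE 0.299, edgeR adjusted p = 0.0708). txndc5, for a protein disulfide isomerase of the endoplasmic reticulum, measured 165, 142 and 148 CPM at 1 wpi, against 130, 59.1 and 56.1 CPM in sham cords (log2 fold change 0.89, SE 0.336, edgeR adjusted p = 0.111). DESeq2 with all libraries called both genes higher (adjusted p = 0.00558 for txn and 0.0323 for txndc5). In these genes sham replicate 1 lay nearer to the 1 wpi libraries than to the other sham libraries. Without it the log2 fold changes were 1.44 for txn and 1.40 for txndc5 (edgeR adjusted p = 8.48e-05 and 0.000105). txnrd1, which encodes a thioredoxin reductase, overlapped between groups, with 208, 222 and 216 CPM at 1 wpi, against 229, 163 and 163 CPM in sham cords. The mitochondrial thioredoxin gene txn2 had a log2 fold change of -0.14 (edgeR adjusted p = 0.216). The other 7 (txndc9, txndc15, txndc17, txnipb, txnl1, txnl4a and txnl4b) had log2 fold changes from -0.05 to 0.31, and the last 2 of them encode splicing proteins with a thioredoxin fold.

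None of 7 genes for glutaredoxins and for glutathione synthesis or reduction passed edgeR's test. Of the 7, 4 had an unadjusted p below 0.05, against 38.2% of all genes tested. By DESeq2, 1 was higher and 3 were lower, against 14.6% and 14.5% of all genes it tested. gclm, for the modifier subunit of glutamate-cysteine ligase, measured 38.2, 34.9 and 35.5 CPM at 1 wpi, against 42.9, 55.8 and 53.2 CPM in sham cords (log2 fold change -0.49, SE 0.116, edgeR adjusted p = 0.0507). gclc, for the catalytic subunit, measured 99.0, 105 and 99.1 CPM at 1 wpi, against 106, 149 and 144 CPM in sham cords (log2 fold change -0.40, edgeR adjusted p = 0.0937). Their groups did not overlap, as for 44.7% of all genes tested, and DESeq2 called both lower (adjusted p = 0.00432 for gclm and 0.0422 for gclc). gsr, for glutathione reductase, had a log2 fold change of 0.21 with overlapping groups (edgeR adjusted p = 0.184). Of the glutaredoxins, which reduce protein-glutathione bonds, glrx had a log2 fold change of 0.25 and glrx5, a mitochondrial protein of iron-sulfur cluster assembly, one of -0.31 (edgeR adjusted p = 0.0618 and 0.0622). glrx3, the member of this class with the most reads, had a log2 fold change of -0.08 (edgeR adjusted p = 0.492), and glrx2 one of -0.20 (edgeR adjusted p = 0.470). Of 22 tested genes of glutathione metabolism and transport outside the members, none passed edgeR's test and 1 was lower by DESeq2. Of the 22, 3 had an unadjusted p below 0.05, against 38.2% of all genes tested. Without sham replicate 1, 5 of the 22 were higher and 7 lower, against 29% and 28.2% of all genes tested in that fit.

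Of 13 glutathione S-transferase genes, which join glutathione to reactive compounds, gstt1b rose and gstr fell. That was 15.4% of these genes, against 10.6% of all genes tested called in either direction. gstr, of the rho class found in fish, had the most reads of the 13 genes. It measured 146, 155 and 149 CPM at 1 wpi, against 209, 380 and 393 CPM in sham cords. It fell with a log2 fold change of -1.12 (SE 0.243, edgeR adjusted p = 0.0440), and the level was 2.18-fold lower at 1 wpi. gstt1b, of the theta class, measured 23.9, 27.3 and 25.0 CPM at 1 wpi, against 18.9, 17.9 and 15.8 CPM in sham cords, a log2 fold change of 0.54 (SE 0.107, edgeR adjusted p = 0.0417). The groups of these 2 genes did not overlap, as for 44.7% of all genes tested.

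The omega class genes gsto1 and gsto2 pointed in opposite directions. gsto2 measured 37.3, 47.6 and 47.3 CPM at 1 wpi, against 43.3, 12.4 and 10.8 CPM in sham cords (log2 fold change 0.99, SE 0.547, edgeR adjusted p = 0.225). Sham replicate 1 thus had a level within the range of the 1 wpi libraries, and without it the log2 fold change was 1.93 (edgeR adjusted p = 0.000198). gsto1 had a log2 fold change of -0.39 (edgeR adjusted p = 0.184) with levels from 20.5 to 23.3 CPM at 1 wpi, against 20.6, 31.6 and 33.1 CPM in sham cords. Here too sham replicate 1 lay within the 1 wpi range, and without it the log2 fold change was -0.58 (edgeR adjusted p = 0.00128). The remaining 9 (gsta.1, gsta.2, gstcd, gstk1, gstm.1, gstm.2, gstm.3, gstp1 and gstz1) had log2 fold changes between -0.54 and 0.43 and adjusted p-values from 0.0713 to 0.647. Without sham replicate 1, edgeR called 3 of the 13 genes higher and 6 lower, against 29% and 28.2% of all genes tested in that fit. The authors dropped reads that mapped poorly, so levels of the like-named gsta, gstm and gstp copies are uncertain where their sequences are shared.

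None of the 3 genes for heme oxygenases and Nqo1 passed edgeR's test, and hmox2a was lower by DESeq2. Of the 3, 2 had an unadjusted p below 0.05, as did 38.2% of all genes tested. hmox2a, for the constitutive form of the enzyme that breaks down heme, measured 49.2, 51.0 and 55.5 CPM at 1 wpi, against 60.4, 91.8 and 102 CPM in sham cords (log2 fold change -0.71, SE 0.195, edgeR adjusted p = 0.0626). hmox1a, for the inducible form, measured 54.1, 61.4 and 69.5 CPM at 1 wpi, against 62.9, 23.8 and 28.1 CPM in sham cords (log2 fold change 0.69, SE 0.373, edgeR adjusted p = 0.220). The groups were separate for hmox2a, as for 44.7% of all genes tested, and overlapped for hmox1a through sham replicate 1. Without that library hmox1a was higher by 1.25 on the log2 scale and hmox2a had a log2 fold change of -0.90 (edgeR adjusted p = 0.000633 and 0.000284). nqo1, a standard target of Nrf2, measured 12.2, 14.2 and 11.5 CPM at 1 wpi, against 13.0, 23.7 and 20.4 CPM in sham cords (log2 fold change -0.59, edgeR adjusted p = 0.118). Without sham replicate 1, nqo1 was lower (log2 fold change -0.80, edgeR adjusted p = 0.00221). That fit called all 3 genes, against 57.2% of all genes tested in it.

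**Figure D2:**
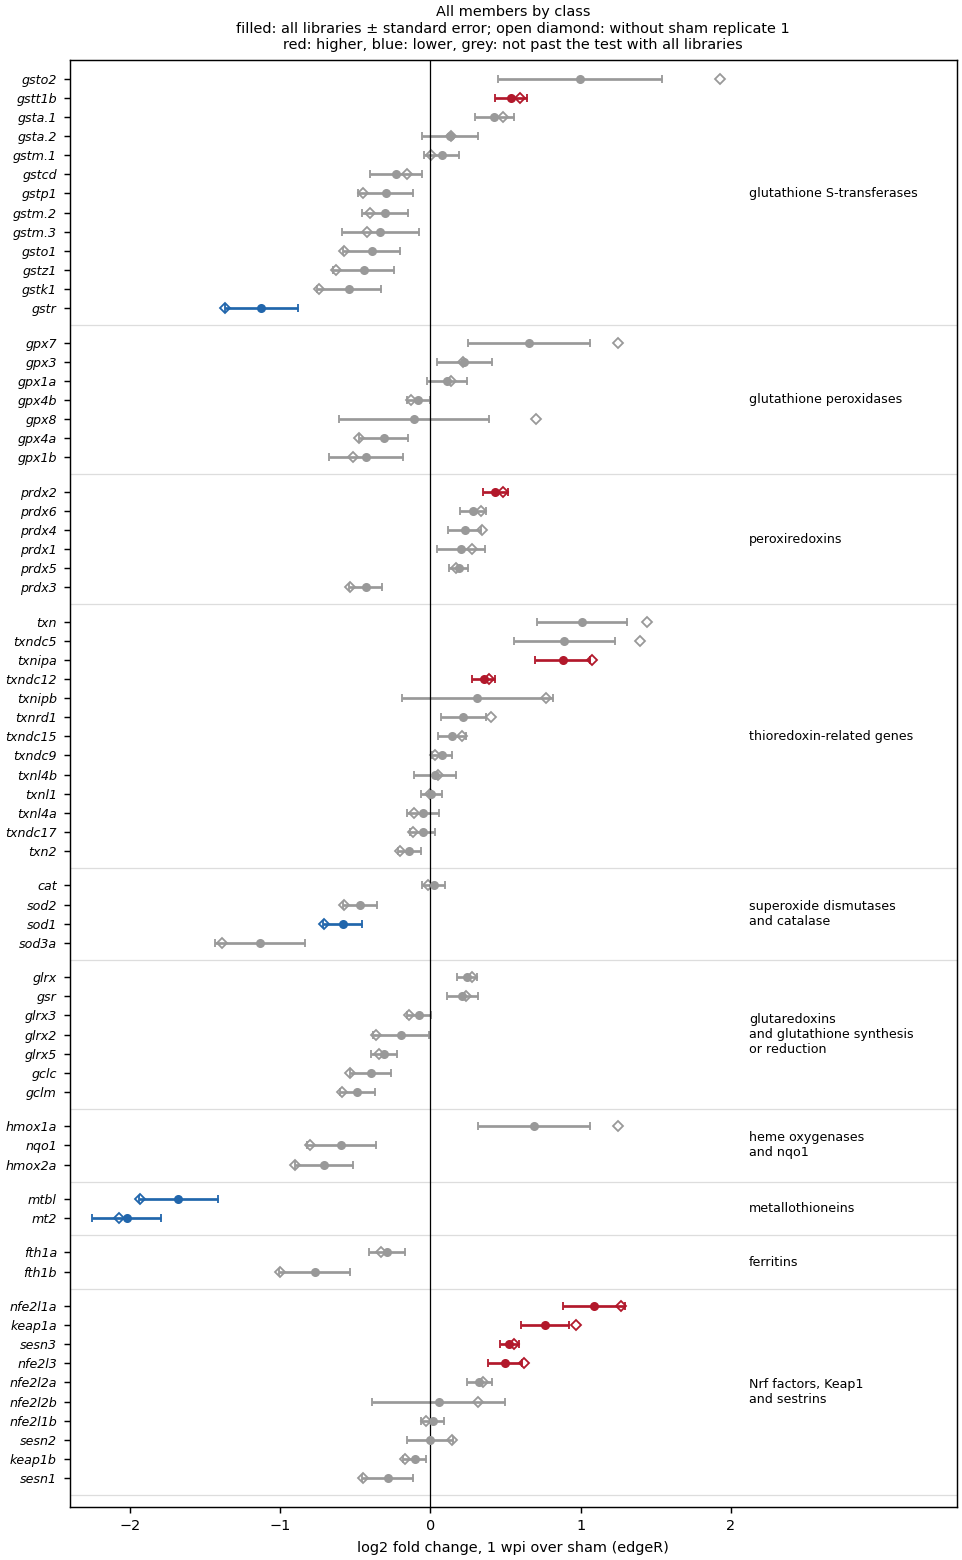
Log2 fold change (1 wpi over sham, edgeR) of the 67 members by class, with filled points and standard errors for all libraries and open diamonds for the fit without sham replicate 1. The 8 red members rose, the 4 blue members fell and the 55 grey ones did not pass, and mt2 and mtbl lie farthest from 0. For gsto2, gpx7, gpx8, txn, txndc5 and hmox1a, among others, the diamond lies outside the standard error.

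Of 10 genes for Nrf factors, Keap1 proteins and sestrins, 4 rose and none passed as lower in edgeR. Among all genes tested, 5.81% were higher and 4.83% lower. DESeq2 called 5 of the 10 higher and 0 lower, against 14.6% and 14.5% of all genes it tested. Without sham replicate 1, edgeR called 5 higher and 2 lower, against 29% and 28.2% of all genes tested in that fit. The 2 lower were sesn1 (log2 fold change -0.45, edgeR adjusted p = 0.00249) and keap1b (-0.17, edgeR adjusted p = 0.0200). nfe2l1a, for the endoplasmic reticulum-anchored factor Nrf1 that raises proteasome genes in mammals, measured 23.2, 19.2 and 17.9 CPM at 1 wpi, against 11.7, 9.57 and 7.16 CPM in sham cords. It rose with a log2 fold change of 1.09 (SE 0.207, edgeR adjusted p = 0.0393). nfe2l3, for the related factor Nrf3, measured 75.0, 73.4 and 71.6 CPM at 1 wpi, against 61.1, 46.5 and 48.7 CPM in sham cords, and rose by 0.49 on the log2 scale (SE 0.114, edgeR adjusted p = 0.0474). In upper-quartile scaling nfe2l3 did not pass (edgeR adjusted p = 0.0531). The locus of nfe2l1a overlaps that of the chromatin gene cbx1a in GRCz12tu, and cbx1a had a log2 fold change of -0.04 (edgeR adjusted p = 0.672).

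keap1a, for an inhibitor of Nrf2, measured 106, 116 and 112 CPM at 1 wpi, against 82.6, 57.7 and 56.2 CPM in sham cords. It rose with a log2 fold change of 0.76 (SE 0.160, edgeR adjusted p = 0.0429). nfe2l2a, for Nrf2 itself, measured 104, 118 and 121 CPM at 1 wpi, against 94.6, 93.2 and 86.3 CPM in sham cords (log2 fold change 0.32, SE 0.0833, edgeR adjusted p = 0.0564). The groups were separate for both genes, as for 44.7% of all genes tested. DESeq2 called nfe2l2a as higher (adjusted p = 0.00887).

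sesn3, for a sestrin, a stress protein that restrains mTORC1 signaling in mammals, varied little within each group. It measured 117, 116 and 116 CPM at 1 wpi, against 83.9, 81.9 and 76.7 CPM in sham cords. sesn3 rose with a log2 fold change of 0.53 (SE 0.0623, edgeR adjusted p = 0.0281), and sham replicate 1 had a position of 0.150 on the same scale as for mtbl. The other sestrin genes did not pass with all libraries. sesn1, the regulator gene with the most reads, measured 197, 190 and 191 CPM at 1 wpi, against 177, 281 and 245 CPM in sham cords (log2 fold change -0.28, edgeR adjusted p = 0.261). sesn2 had a log2 fold change of -0.0019 (edgeR adjusted p = 0.994).

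Among 29 tested partners of Nrf2 and genes of NADPH supply and protein repair, 1 rose and none passed as lower in edgeR. Of all genes tested, 5.81% were higher and 4.83% lower. DESeq2 called 5 of the 29 higher and 5 lower, against 14.6% and 14.5% of all genes it tested. Of the 29, 12 had an unadjusted p under 0.05, against 38.2% of all genes tested. Without sham replicate 1, 7 were higher and 7 lower, against 29% and 28.2% of all genes tested in that fit. sepw1, for the small selenoprotein W, measured 313, 329 and 329 CPM at 1 wpi, against 232, 210 and 215 CPM in sham cords. It rose by 0.56 on the log2 scale (SE 0.0773, edgeR adjusted p = 0.0294). bach1a, for a repressor that competes with Nrf2, lay just short of the threshold (log2 fold change 0.53, edgeR adjusted p = 0.0503). DESeq2 called bach1a higher (adjusted p = 0.00385). Of 8 tested genes of the NADPH oxidases, which make superoxide in phagocytes, none passed edgeR's test. Of the 8, 2 reached an unadjusted p below 0.05, against 38.2% of all genes tested. DESeq2 called 2 higher, against 14.6% of all genes it tested. The 8 genes had a median log2 fold change of 0.60. Without sham replicate 1, 5 of the 8 were higher, as were 29% of all genes tested in that fit.

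Zebrafish keep several of these genes as paralogs, and the ratio of a pair within a library does not depend on library scaling. The pairs were chosen after their values were seen. In 3 of 7 pairs the ratio did not overlap between groups, a share close to the 44.7% of all genes tested whose levels did not overlap. The log2 ratio of keap1a to keap1b was 1.00, 1.13 and 1.09 at 1 wpi, against 0.68, -0.04 and -0.07 in sham cords. The ratio was thus higher in each library at 1 wpi, and keap1b itself measured 52.6, 52.8 and 52.6 CPM at 1 wpi, against 51.6, 59.4 and 59.0 CPM in sham cords (log2 fold change -0.11, edgeR adjusted p = 0.345).

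The log2 ratio of nfe2l1a to nfe2l1b averaged -2.59 ± 0.237 at 1 wpi and -3.67 ± 0.461 in sham cords (SD, n = 3 each), and nfe2l1b alone had a log2 fold change of 0.01 (edgeR adjusted p = 0.905). The ratio of gpx1a to gpx1b was also higher at 1 wpi, with a mean log2 value of 5.22 ± 0.193 against 4.69 ± 0.223 in sham cords (SD, n = 3 each), although neither gene passed the test. An exact permutation test of each ratio (2-sided) gave p = 0.1 for these 3 pairs, the smallest p that 3 libraries against 3 allow (0.233 adjusted over the 7 pairs). The groups overlapped for the ratios of nfe2l2a to nfe2l2b, gpx4a to gpx4b, txnipa to txnipb and fth1a to fth1b (p from 0.2 to 0.6 in the exact permutation test). nfe2l2b was near the detection limit, at 0.25 to 0.642 CPM over all libraries. gpx1b was also low, at 27 to 54 reads in a library, so the gpx1 ratio rests on few reads.

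**Figure D3:**
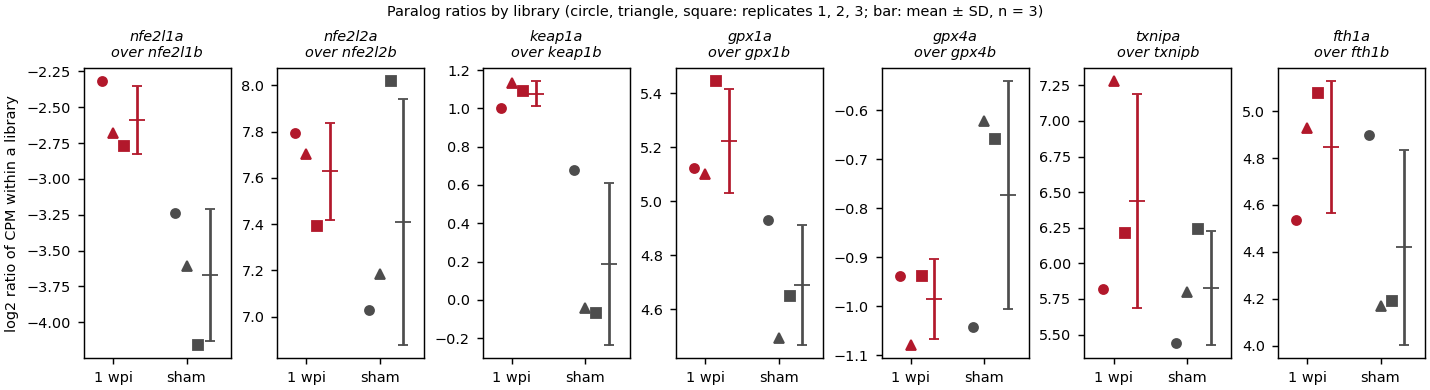
Log2 ratio of CPM of 7 paralog pairs within each library, with the 3 libraries at 1 wpi (red) left of the 3 sham libraries (grey) and each group's mean ± SD. The groups do not overlap for nfe2l1, keap1 and gpx1, where the ratio is higher at 1 wpi.

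Sham replicate 1 did not stand in the same place for every member. Its position on the log2 scale (0 at the average of the other sham libraries, 1 at the 1 wpi average) had a median of 0.736 over the 48 members called without it, against 0.729 over the 7373 genes called without it and tested with all libraries. It lay under 0.25 for 4 of the 48 members (prdx5, mt2, sesn3 and nfe2l2a) and at 0.75 or more for 24. By class, the median was 0.978 over 9 glutathione S-transferases and 0.274 over the 2 metallothioneins. These positions use the same libraries as the calls and are a description. The median coefficient of variation of the members was 4.67% among the libraries at 1 wpi and 13.95% among the sham libraries, against 5.70% and 16.1% over all genes tested.

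**Figure D4:**
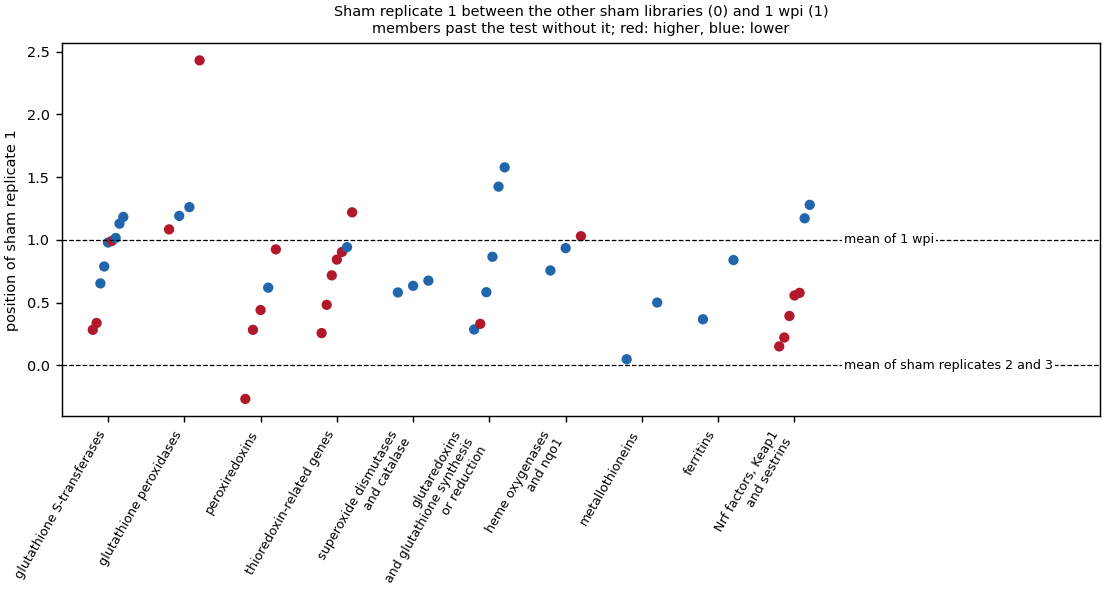
Position of sham replicate 1 (y axis, 0 at the mean of sham replicates 2 and 3 and 1 at the mean of the 1 wpi libraries, log2 scale) for the 48 members called without it, by class, with red for members higher and blue for members lower at 1 wpi. It lies near 0 for mt2, at or above 1 for several glutathione S-transferases and peroxidases, and at 2.43 for gpx8.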

How the data were processed

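The authors aligned 50-base single-end reads to danRer10 with TopHat2 (2.2.1 in the submitters' notes), used SAMtools 1.3.1 to drop poorly mapped reads, and deposited raw counts per gene symbol from HTSeq 0.6.0. Neither annotation nor strandedness was stated, being not given in the sources used here, and overlapping genes cannot be told apart. The 5 rows of reads without a gene were left out. Reads outside genes were 41.2% to 42.1% of all reads in the files at 1 wpi, against 43.8% to 51.3% in sham cords.

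edgeR 4.0.16 (R 4.3.3) was used with filterByExpr (minimum count 10, minimum total 15), TMM scaling and 1 term for injury, with Benjamini-Hochberg adjustment over all genes tested and a threshold of 0.05. All 67 members were tested. The SE is the absolute log2 fold change over the square root of F. Log2 CPM used a prior count of 2. Alternatives were RLE and upper-quartile scaling, TMM leaving out muscle, erythrocyte, oocyte and skin markers, limma-voom 3.58.1 with sample weights, DESeq2 1.42.0 (plain or with a fold change prior), 3 other filters, a replicate block and each library left out in edgeR and DESeq2. Counts of libraries of a group differed by more than sampling noise (chi-square over its degrees of freedom, 11.8 to 167).

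Members and lists were chosen with earlier results of these data known. By rule the text named members past the test, those of each class with the most reads or, at a mean of at least 1 CPM, the largest absolute log2 fold change, those with an absolute log2 fold change of at least 1 with all libraries or, if called, without sham replicate 1, and up to 4 called genes of each pathway list. Other members, bach1a, alas1, neighbouring genes and the paralog pairs were chosen after their values were seen. Gene names came from the files, and all 67 matched a RefSeq gene table of another assembly (GRCz12tu), used only for overlapping loci. There, 16 members overlapped another gene, among them gstr, mt2, sesn3 and nfe2l1a. Gene lengths of this build were not used, so levels were not compared between genes.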

Additional observations from a re-analysis of the deposited data

How the results depend on the processing

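With all 6 libraries edgeR called 8 members as higher and 4 as lower (744 and 618 of all genes). Leaving out 1 library in turn gave from 0 to 22 members higher and from 0 to 26 lower in edgeR (0 to 3750 and 0 to 3647 genes), where the highest counts were those without sham replicate 1 and every other library left out gave 0. In those other fits the smallest adjusted p of a member was 0.105 and 3026 to 3440 genes had an unadjusted p under 0.05. DESeq2 with 1 library left out gave from 8 to 21 members higher and from 4 to 25 lower (882 to 3642 and 786 to 3395 genes), with 9 members lower without injured replicate 1 and 932 and 929 genes lower without sham replicate 2 and 3. With all libraries DESeq2 called 15 members higher and 13 lower without a prior (1894 and 1886 genes) and 15 and 13 with one (1891 and 1825 genes). limma-voom, which gave sham replicate 1 a weight of 0.0949 against 0.948 to 2.54 for the other libraries, called 22 higher and 25 lower (3740 and 3805 genes). Upper-quartile scaling called 7 higher and 7 lower (686 and 701 genes). A replicate block called 0 members and 0 genes in either direction, with 29 members and 4322 genes at an unadjusted p under 0.05. Libraries with the same number shared only that number (correlations of their deviations from the group means of -0.165, -0.026 and 0.067), so this does not describe a paired design. The cause of these changes was not tested.

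All 12 called members kept their direction in every fit. The log2 fold change of cat turned negative without sham replicate 1 or injured replicate 2 in edgeR (range over libraries left out -0.0149 to 0.0499), and in DESeq2 without sham replicate 1 (-0.0111). Of the other values of named members over the alternatives, 431 kept their direction and their side of the threshold, 64 passed it and 74 fell short of it. No scaling moved the median of all genes by more than 0.1.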
